A study of Danio rerio with 12 samples.

Results

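The transcripts of the cytoplasmic ribosomal protein genes were followed through 12 libraries of polyadenylated RNA from zebrafish ovary. Members were taken by gene symbol: names that begin with rpl, rplp or rps followed by a digit, and rpsa, with the rps6k kinases left out. The rule found 82 of 26171 named genes. Of these, 34 encode proteins of the small subunit, 42 encode proteins of the large subunit and 4 encode proteins of its stalk. The remaining 2, rpl7l1 and rps19bp1, carry names of the family but are not subunits of the finished ribosome. Every one of the 82 passed the filter on low counts, and 21407 genes in all were tested. The ovaries came from wild-type fish, of the AB strain per the labels, and from adamts9 mutants. Each genotype was sampled at 47 and at 61 days post fertilization (dpf), with 3 libraries in each of 4 groups. These ages are those of the labels, and the design text of the series gives other ages. The gene adamts9 codes for a secreted metalloprotease that cuts proteins of the extracellular matrix. The sources used here do not give the mutant allele, its background strain or the number of fish behind a library. The p-values therefore measure the spread between these libraries, which may be technical in part.

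The small ribosomal subunit reads the messenger RNA and the large subunit joins the amino acids. Each is built from ribosomal RNA and a set of small, mostly basic proteins, most of them needed in equal numbers. The stalk of the large subunit recruits the translation factors. In vertebrates these messenger RNAs begin with a terminal oligopyrimidine (TOP) tract, through which TOR signalling and the RNA-binding protein Larp1 set their translation and storage. A growing oocyte builds up ribosomes and ribosomal protein messengers that the embryo later uses, and an ovary holds oocytes of several stages together with follicle cells, blood and immune cells.

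Total estimated counts were 16456718 to 38754919 per library, and a count of 0 would allow 0.0774 to 0.182 CPM, the count scaled to a common library size with TMM factors. The lowest count of any member was 60, for rps8b, so no member was near that floor. adamts9 itself was at 9.98 to 18.9 CPM over the 12 libraries and does not check the genotype labels. All 14 oocyte markers that were looked at were detected in these ovaries. Some libraries stood apart. In wild type at 61 dpf the egg coat gene zp2.1 was at 2930 CPM in replicate 1 but at 519.9 and 295 CPM in replicates 2 and 3, against at least 2049 CPM in the other 9 libraries, and zp3b and zp3a.2 were also lowest in replicates 2 and 3. Replicate 2 of the mutants at 47 dpf had a summed level of 222 CPM over 6 skeletal muscle genes, against 5.24 to 21.1 CPM elsewhere. Summed levels of 6 exocrine pancreas and 6 liver genes also differed widely between libraries. The pancreas genes were at 1040.3 CPM in mutant replicate 3 at 47 dpf and at 2.25 to 469.7 CPM elsewhere. At 61 dpf they were at 145, 318 and 52.0 CPM in wild type and at 119, 4.79 and 341 CPM in mutant. The liver genes were at 111 CPM in mutant replicate 1 at 47 dpf, against at most 39.3 CPM elsewhere.

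The 82 genes together took 1.98, 1.72 and 1.61% of all counts in the wild-type libraries at 47 dpf and 1.93, 2.42 and 1.90% in the mutants of that age. At 61 dpf they took 1.62, 1.30 and 1.28% in wild type and 1.95, 1.78 and 1.84% in mutant. The genotypes overlapped at 47 dpf and did not overlap at 61 dpf, where the 3 wild-type libraries were the lower ones. The group means were 1.77 ± 0.19% and 2.08 ± 0.293% at 47 dpf and 1.40 ± 0.192% and 1.86 ± 0.0874% at 61 dpf (wild type and mutant, SD, n = 3 each). The share is a sum over chosen members and was not tested. The 74 mitochondrial ribosomal protein genes, which serve the separate ribosome of the mitochondrion, took 0.237 ± 0.0244% and 0.239 ± 0.0125% at 47 dpf and 0.239 ± 0.0471% and 0.218 ± 0.0124% at 61 dpf in the same order. In a whole tissue, fewer cells of a type and less RNA per cell cannot be told apart.

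**Figure D1:**
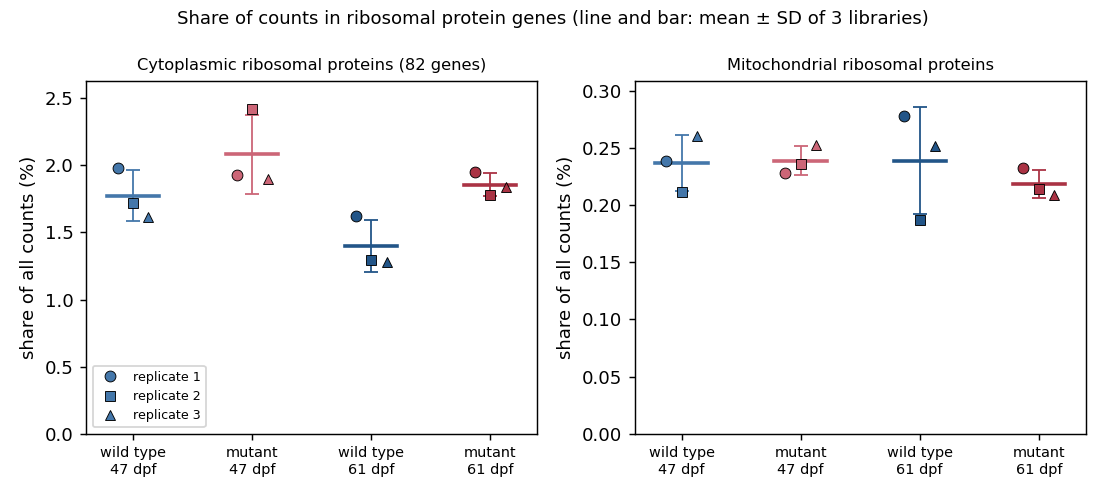
Share of all estimated counts (%) in the 82 cytoplasmic ribosomal protein genes (left) and in the mitochondrial ribosomal protein genes (right), 1 symbol per library, with the mean and SD of the 3 libraries of each group. On the left the 3 wild-type libraries at 61 dpf sit between 1.28 and 1.62%, below the 3 mutant libraries of that age.

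The balance between the subunits was close in the 4 groups. Counts of small subunit genes divided by counts of large subunit genes gave 0.769 ± 0.0145 and 0.775 ± 0.0138 in wild type and mutant at 47 dpf, and 0.779 ± 0.0281 and 0.804 ± 0.00329 at 61 dpf (SD, n = 3 each). The 4 groups differed more in how far the members' levels spread between libraries. The median over the members of the SD of log2 CPM at 47 dpf was 0.18 for wild type and 0.27 for mutant, and at 61 dpf it was 0.49 and 0.11. Over all genes tested the medians were 0.28, 0.30, 0.44 and 0.23 in the same order. Wild type at 61 dpf was the widest group for 64 of the 82 members, and mutant at 61 dpf was the tightest for 53. The stalk gene rplp0 had the smallest SD in mutant at 61 dpf, 0.0099, with 423, 427 and 422 CPM in its libraries.

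Single libraries held most of the extremes. Replicate 2 of the mutants at 47 dpf was the highest of all 12 libraries for 52 of the 82 members. Wild-type replicates 2 and 3 at 61 dpf were the lowest for 38 and 25 members, and replicate 3 was also the highest for 12. These counts were not made over all genes. Over all genes tested, the SD of log2 CPM minus each gene's mean was 0.67, 0.67 and 0.84 in wild type at 61 dpf. It was 0.65 in mutant replicate 2 at 47 dpf and 0.51 to 0.57 in the other libraries. Members did not move as one block within these libraries. rpl5a, whose protein binds the small ribosomal RNA of the large subunit, was at 153, 63.1 and 28.1 CPM in wild type at 61 dpf, the widest spread of any member there. rpl35a, another large subunit gene, was at 105, 44.4 and 49.8 CPM in the same libraries, with replicate 1 the highest. rps28, a small subunit gene, was at 97.1, 87.7 and 172 CPM, with replicate 3 the highest, and rps27.2 was the tightest member at 21.7, 20.7 and 19.9 CPM.

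**Figure D2:**
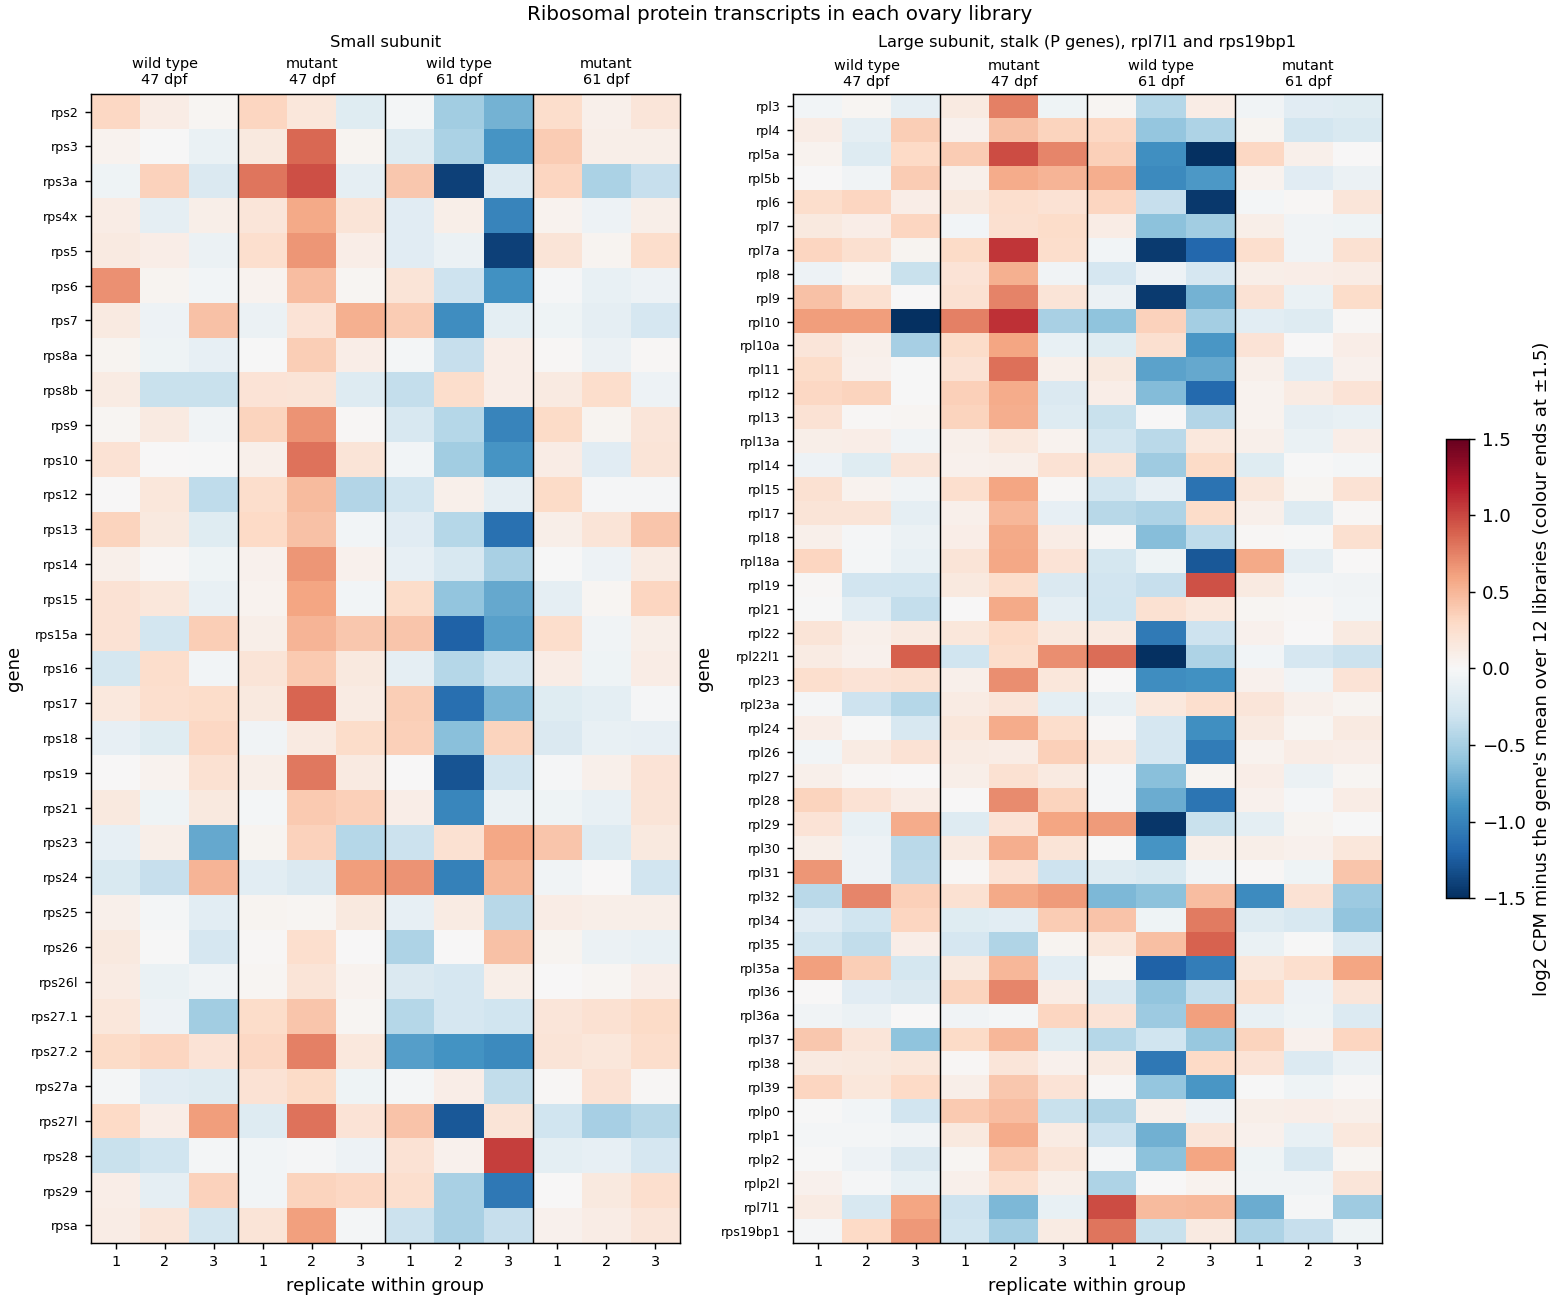
log2 CPM of 81 of the 82 genes (rows) in each of the 12 libraries (columns), as the difference from the gene's own mean over the libraries. Mutant replicate 2 at 47 dpf is the highest column for 52 of all 82 genes and wild-type replicates 2 and 3 at 61 dpf are the lowest for 38 and 25.

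At 61 dpf the only member that edgeR called between the genotypes was rps27.2, 1 of the pair of zebrafish genes for the small subunit protein Rps27. It was at 21.7, 20.7 and 19.9 CPM in wild type and at 44.0, 43.5 and 46.4 CPM in mutant, so that every mutant library lay above every wild-type library. The means were 20.8 ± 0.880 and 44.7 ± 1.56 CPM (SD, n = 3 each), and the log2 fold change was 1.1 ± 0.17 (SE, edgeR quasi-likelihood test, adjusted p = 0.0173, Benjamini-Hochberg over all genes tested). As 1 called member of 82, it gave a share close to that of all genes tested, of which 1.22% were called higher in mutant. The single call therefore does not set the members apart from other genes. No member was called lower, beside 0.598% of all genes, and 4 members were lower at an unadjusted p under 0.05, beside 12.2% of all genes. At 47 dpf the gene was at 47.0, 48.1 and 44.6 CPM in wild type and 47.7, 65.4 and 42.9 CPM in mutant, groups that overlap, with a log2 fold change of 0.16 ± 0.17 (edgeR adjusted p = 0.974).

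The level that stood apart for rps27.2 was therefore that of wild type at 61 dpf. In wild type it fell from 46.6 ± 1.80 CPM at 47 dpf to 20.8 ± 0.880 CPM at 61 dpf (SD, n = 3 each), with a change of -1.16 ± 0.17 on the log2 scale (edgeR adjusted p = 0.0153). This comparison and that of the genotypes at 61 dpf share the 3 wild-type libraries of 61 dpf. In mutant the log2 fold change with age was -0.22 ± 0.17 (edgeR adjusted p = 1). The test of the difference between the genotype effects at the 2 ages did not pass, with 0.95 ± 0.24 on the log2 scale (edgeR adjusted p = 0.395). The wild-type replicates 2 and 3 at 61 dpf did not carry the size of the difference, since without both it was 1.03. In that fit, where the lone wild-type library is assumed to vary like the other groups, the call was lost (edgeR adjusted p = 0.0901). It was also lost when only the libraries compared were fitted (adjusted p = 0.0837) and without any 1 of the mutant libraries of that age (adjusted p = 0.0543 to 0.0744). The fall with age was lost when only the libraries compared were fitted (edgeR adjusted p = 0.0808), without wild-type replicate 2 at 47 dpf (adjusted p = 0.066) and without wild-type replicates 2 and 3 at 61 dpf (adjusted p = 0.111).

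The near copy rps27.1 encodes the same subunit protein, and rps27l is a related gene that in mammals responds to p53. rps27.1 was at 44.1, 49.5 and 48.1 CPM in wild type and at 67.3, 69.1 and 72.5 CPM in mutant at 61 dpf. Its groups did not overlap, the log2 fold change was 0.56 ± 0.18 and it missed the threshold (edgeR adjusted p = 0.0974). rps27l was at 15.7, 4.77 and 13.4 CPM in wild type and 9.46, 8.25 and 8.73 CPM in mutant, groups that overlap. Of the counts of the 3 genes together, rps27.2 held 40.3 ± 3.23% (wild type) and 37.8 ± 1.67% (mutant) at 47 dpf, and 26.2 ± 1.62% and 36.3 ± 0.243% at 61 dpf (SD, n = 3 each). The difference of 10.0 percentage points at 61 dpf had an exact two-sided permutation p = 0.1, the smallest that 3 against 3 libraries allow, and an adjusted p of 0.433 over 52 comparisons of copies. For gene pairs both shares were entered, though each fixes the other, so some of the 52 comparisons repeat. Reads shared by near-identical copies are divided by the estimation, so the level of a single copy is less certain than that of the family.

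**Figure D3:**
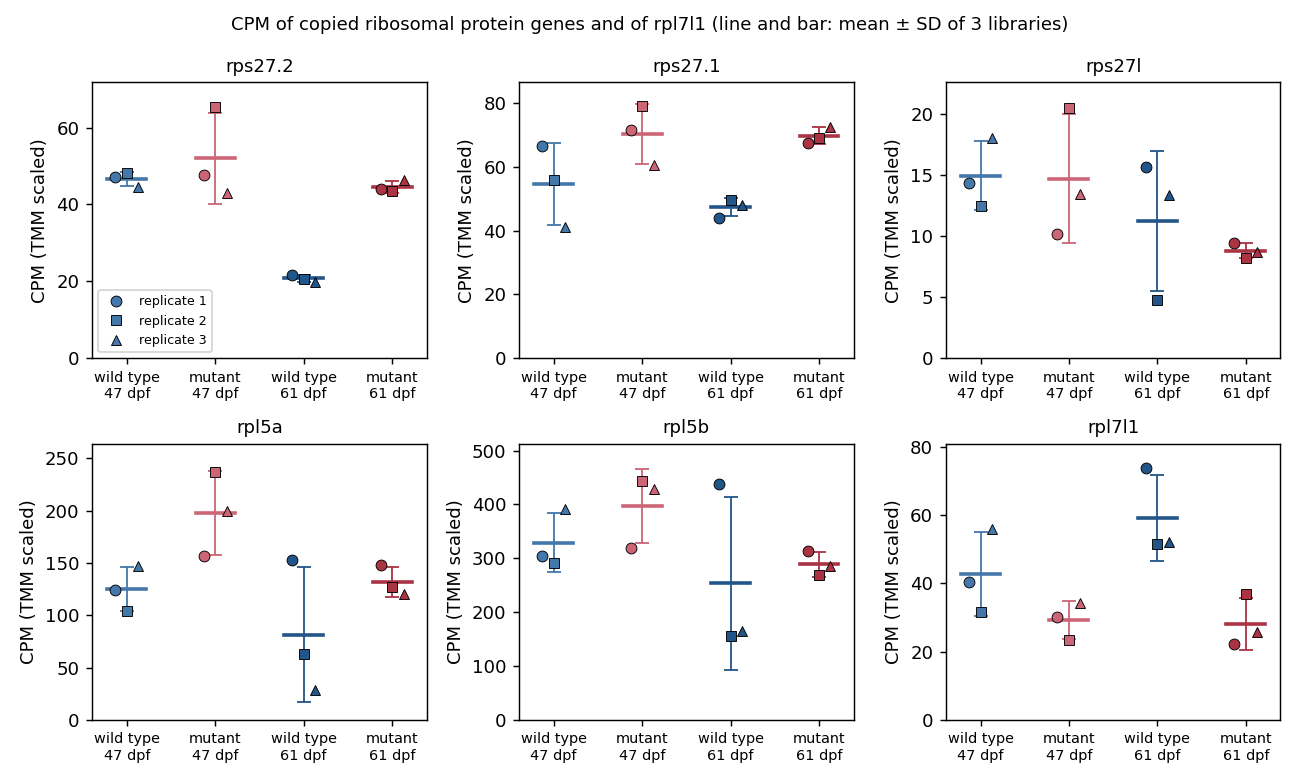
CPM (linear axis from 0) of 5 genes with copies and of rpl7l1, 1 symbol per library, with the mean and SD of the 3 libraries of each group. rps27.2 is near 20.8 CPM in wild type at 61 dpf and between 42.9 and 65.4 CPM in the other 9 libraries, while rpl5a and rpl5b spread widely in wild type at 61 dpf.

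Among all members at 61 dpf, the mutant level was above the wild-type level for 62 of 82, or 75.6%, against 50.4% of all genes tested. The median log2 fold change was 0.27, and over all genes tested it was 0.0055. An unadjusted p under 0.05 was reached by 16 members that were higher in mutant, or 19.5%, beside 13.2% of all genes. The groups did not overlap for 18 members that were higher and 4 that were lower, or 22 and 4.88%, beside 15.6 and 12.3% of all genes. By DESeq2, 2 members, rps27.2 among them, were higher and 4, rpl7l1, rpl34, rpl35 and rps28, were lower at an adjusted p under 0.05, beside 5.16 and 6.21% of the genes it tested. Without wild-type replicates 2 and 3 the median was 0.095, beside 0.074 for all genes, and no member was called. Without wild-type replicate 1 it was 0.44, beside 0.036 for all genes, and 10 of the 82 members were called higher, beside 1.52% of all genes in that fit. The size of the general difference thus rested on which wild-type libraries entered. Under upper-quartile scaling the median of all genes moved to 0.20 and that of the members to 0.47.

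Of 34 small subunit genes, 8 were higher and 1 lower at an unadjusted p under 0.05, with a median of 0.28. Of 42 large subunit genes, 8 were higher and 2 lower, with a median of 0.30, so the subunits had close medians. rps9, an early binder of the RNA of the small subunit, was at 363, 317 and 216 CPM in wild type and 519, 441 and 485 CPM in mutant, with no overlap (0.69 ± 0.21 on the log2 scale, edgeR adjusted p = 0.0886). rpsa, whose protein binds the small subunit late in assembly and is also known as a laminin receptor, was at 141, 125 and 138 CPM and 183, 189 and 199 CPM in the same order (0.50 ± 0.18, edgeR adjusted p = 0.126). Neither passed the threshold.

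The 4 members that were lower in mutant at 61 dpf with no overlap were rpl7l1, rpl34, rpl35 and rps28. rpl7l1 encodes a nucleolar relative of Rpl7, and the related yeast protein is an assembly factor of the large subunit. It was at 73.7, 51.6 and 52.0 CPM in wild type and at 22.1, 36.8 and 25.6 CPM in mutant, with a log2 fold change of -1.07 ± 0.27 (edgeR adjusted p = 0.062). Without wild-type replicate 2 it passed the threshold (edgeR adjusted p = 0.0417). In that fit 4.1% of all genes were called lower, beside 0.598% with all libraries. In every other edgeR fit rpl7l1 missed the threshold. The large subunit genes rpl35 and rpl34 were lower in mutant by margins that missed the threshold. rpl35 was at 169.7, 205 and 278 CPM in wild type and 140.2, 149.8 and 130.4 CPM in mutant (-0.63 ± 0.21 on the log2 scale, edgeR adjusted p = 0.0994). rpl34 was at 247, 175 and 315 CPM and 159, 154 and 121 CPM in the same order (-0.76 ± 0.25, edgeR adjusted p = 0.0994). As these genes were taken for lack of overlap, every wild-type library of this age lay above every mutant one by that choice.

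Markers of other cells also differed at this age. The summed level of 8 macrophage and neutrophil markers was 42.1 to 69.2 CPM in wild type and 93.3 to 104 CPM in mutant at 61 dpf, and 29.3 to 42.3 and 79.1 to 179 CPM at 47 dpf. Much of the difference at 61 dpf lay in 1 gene, cd74a, whose means were 22.6 ± 6.41 (wild type) and 67.2 ± 5.28 CPM (mutant, SD, n = 3 each). By sign, 5 of the 8 markers were higher and 3 lower in mutant at 61 dpf. Of them edgeR called 2 higher, cd74a and coro1a, and 0 lower. At 47 dpf 6 were higher and 2 lower, with 0 called. The summed level of the 14 oocyte markers was 7108 to 12040.3 CPM in wild type and 10594 to 12172 CPM in mutant at 61 dpf, with the lowest values in wild-type replicates 2 and 3. Those low sums came from zp2.1, zp3b and zp3a.2, since the other 11 markers summed to 5362, 5549 and 7833 CPM in wild-type replicates 1 to 3 and to 6238, 5502 and 5646 CPM in mutant. The mitochondrially encoded genes took 1.56 ± 0.587% of wild-type counts and 0.907 ± 0.156% of mutant counts at 61 dpf (SD, n = 3 each). Of 10 follicle and other somatic gonad markers, edgeR called 3 higher and 1 lower in mutant at 61 dpf, beside 1.22 and 0.598% of all genes. Their summed level was 422 to 652 CPM in wild type and 236 to 424 CPM in mutant at that age. That sum was carried by cyp11a1, which encodes the first enzyme of steroid synthesis and was at 378, 327 and 559.7 CPM in wild type and 86.2, 217 and 220.2 CPM in mutant. The summed level of the other 9 markers ran the other way, without overlap. It was 78, 94.8 and 92.7 CPM (wild type) against 149.8, 207 and 177 CPM (mutant). These 9 did not all go that way, since by sign 6 of the 10 markers were higher and 4 lower in mutant. The marker called lower was fshr, not cyp11a1. The means of fshr were 9.72 ± 2.18 (wild type) and 4.28 ± 0.503 CPM (mutant, SD, n = 3 each). Its log2 fold change was -1.18 ± 0.24 (edgeR adjusted p = 0.0379). No marker of these lists was at 0 in all libraries. The part of these differences in the ribosomal protein levels was not tested.

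At 47 dpf no member was called in either direction by edgeR, beside 0.0467% of all genes called higher and 0.042% called lower. At an unadjusted p under 0.05 there was 1 member higher and 0 lower, beside 5.12 and 1.8% of all genes, and DESeq2 called 0. The mutant level was nonetheless above that of wild type for 68 of the 82 members, or 82.9%, against 52.7% of all genes. The median log2 fold change was 0.18, beside 0.021 for all genes. The groups did not overlap for 10 members, all higher in mutant, which is 12.2% beside 8.01% of all genes, and no member was lower without overlap, beside 4.6%. Mutant replicate 2 was the library with the raised skeletal muscle genes and also the highest for 52 of the 82 members. Without it the median was 0.076, and without replicates 1 and 3 in turn it was 0.23 each time. The pancreas genes summed to 262, 2.25 and 61.4 CPM in wild type and 469.7, 13.7 and 1040.3 CPM in mutant at this age, and the liver genes to 14.1, 5.71 and 6.65 CPM and 111, 8.7 and 13.7 CPM. All 6 genes of each list had a log2 fold change above 0 and none was called. Leaving out a library removes all that sets it apart, so the medians above cannot show the part of this material. That part was not tested.

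The smallest p at 47 dpf belonged to rpl36, a large subunit gene. It was at 122, 107 and 104 CPM in wild type and at 153, 201 and 131 CPM in mutant, with every mutant library above the wild-type ones and a log2 fold change of 0.54 ± 0.19 (edgeR adjusted p = 0.482). Its value at 61 dpf was close, 0.51 ± 0.19, again without overlap (edgeR adjusted p = 0.123). rpl8, a large subunit protein near the site where the peptide bond is formed, was at 226, 244 and 189 CPM and 275, 345 and 229.7 CPM at 47 dpf, and its groups overlapped (0.37 ± 0.17, edgeR adjusted p = 0.726). rpl7l1 was again the lower in mutant, at 40.5, 31.6 and 56.0 CPM in wild type and 30.1, 23.4 and 34.4 CPM in mutant, with overlap (-0.54 ± 0.27, edgeR adjusted p = 0.755). rps27.1 had a log2 fold change of 0.36 ± 0.18 (edgeR adjusted p = 0.766).

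**Figure D4:**
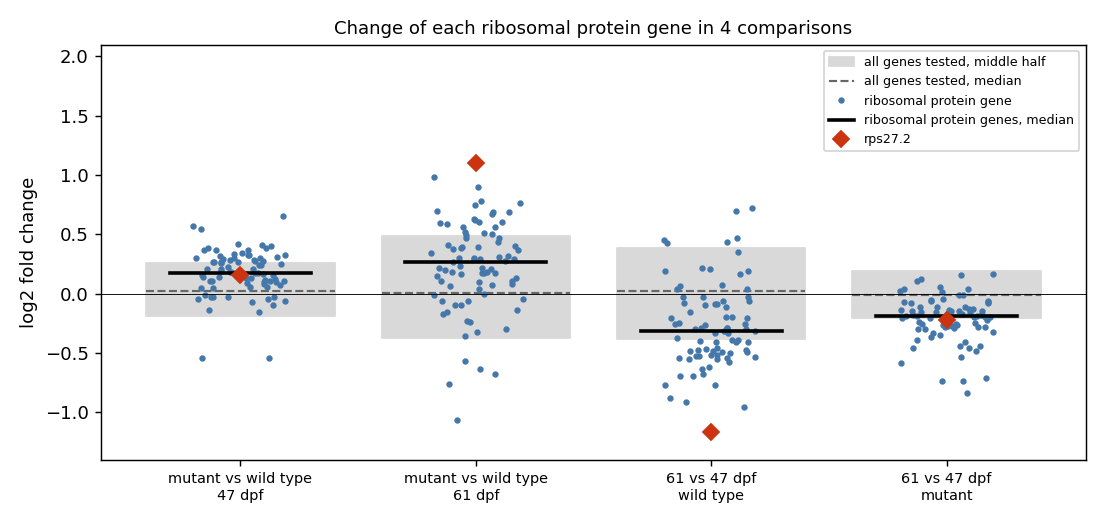
log2 fold change of each of the 82 genes (dots) in 4 comparisons, with the members' median (black line), the median of all genes tested (dashed line) and their interquartile range (grey box). The members' medians are 0.18 and 0.27 for mutant against wild type at 47 and 61 dpf and -0.32 and -0.19 for 61 against 47 dpf in wild type and mutant, and rps27.2 (diamond) is the outermost member in the comparison of genotypes at 61 dpf and of ages in wild type.

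The genotype comparisons at the 2 ages share no library. The log2 fold change was above 0 at both ages for 53 members, or 64.6%, against 33.2% of all genes tested. Taken singly, 82.9% of members were above 0 at 47 dpf and 75.6% at 61 dpf. Most members would then be above 0 at both ages even with unrelated signs, so this share does not show agreement gene by gene. It was below 0 at both ages for 5, or 6.10%, against 30.2% of all genes. These 5 were rpl7l1, rps19bp1, rpl35, rpl22l1 and rps27l. The first 2 are the members that are not subunits, rpl35 is a large subunit gene, and the last 2 have names of copies of subunit genes. rps19bp1, known in mammals for a protein that binds Rps19, was at 32.0, 39.9 and 51.0 CPM in wild type and 26.4, 22.7 and 35.4 CPM in mutant at 47 dpf, and at 56.6, 25.7 and 35.6 CPM and 23.4, 25.5 and 30.9 CPM at 61 dpf. Its genotypes overlapped at both ages and its log2 fold changes were -0.54 ± 0.29 and -0.56 ± 0.29 (edgeR adjusted p = 0.796 and 0.243). The signs of rpl35, rpl22l1 and rps27l at 47 dpf were not stable. All of them turned positive without wild-type replicate 3, rpl22l1 and rps27l also without mutant replicate 1, and rpl35, at -0.04 with all libraries, also without mutant replicate 2. At 61 dpf rpl22l1 turned positive without wild-type replicate 1. The test of the difference between the ages called no member and no gene by edgeR, which is 0% of all genes in either direction. At an unadjusted p under 0.05, 2 members were higher and 2 lower, beside 4.39 and 4.07% of all genes, and DESeq2 called 0 members.

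**Figure D5:**
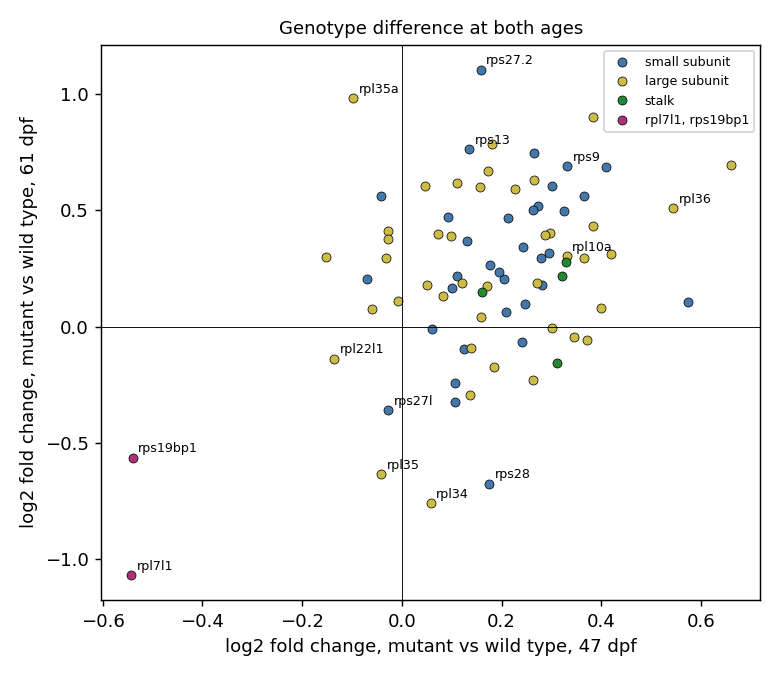
log2 fold change of mutant against wild type at 47 dpf (horizontal) and at 61 dpf (vertical), 1 point per gene, coloured by subunit. The upper right part of the plot holds 53 of the 82 genes and the lower left part 5, with rpl7l1 and rps19bp1, which are not subunits, the lowest at 47 dpf.

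With age most members had a log2 fold change below 0 in wild type. Of the 82, rps27.2 alone fell by the edgeR test with all libraries, beside 0.789% of all genes, and no member rose, beside 0.729%. At an unadjusted p under 0.05 there were 15 members lower and 2 higher, beside 10.2 and 11.4% of all genes, and DESeq2 called 2 lower and 2 higher, beside 3.43 and 4.41% of the genes it tested. The log2 fold change was below 0 for 66 of 82, or 80.5%, beside 48.5% of all genes, and the median was -0.32 beside 0.023 for all genes. The groups did not overlap for 17 members that were lower and 2 that were higher, or 20.7 and 2.44%, beside 11.5 and 11.2% of all genes. Without wild-type replicates 2 and 3 at 61 dpf the median was -0.09 and no member was called, while without replicate 1 of that group 16 members were called lower, beside 2.36% of all genes in that fit. The summed level of 5 erythroid markers was 248 to 523 CPM at 47 dpf and 20.8 to 57.7 CPM at 61 dpf in wild type, and 159 to 814 CPM and 34.8 to 67.2 CPM in mutant, and none of the 5 was at 0 in all libraries. Its part in the age comparisons was not tested.

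After rps27.2 the leading members in wild type were rpl39, rpl35 and rps28. rpl39, a very small protein at the exit tunnel of the large subunit, was at 237, 213 and 232 CPM at 47 dpf and 191, 127 and 103 CPM at 61 dpf, with no overlap (-0.70 ± 0.20 on the log2 scale, edgeR adjusted p = 0.0946). rpl35, which also lies near the tunnel exit, lay the other way, at 124, 116 and 161 CPM against 169.7, 205 and 278 CPM without overlap (0.70 ± 0.21, edgeR adjusted p = 0.0994). rps28 likewise had its 3 libraries of 61 dpf above those of 47 dpf, at 97.1, 87.7 and 172 CPM against 66.3, 67.9 and 82.1 CPM (0.72 ± 0.22, edgeR adjusted p = 0.105). rpl35 and rps28 were the 2 members that were higher at 61 dpf in wild type without overlap.

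In mutant most members also had a log2 fold change below 0 with age. No member was called by edgeR or DESeq2. DESeq2 called 0.0349% of its genes higher and 0.0543% lower, and by edgeR no gene was called at all, which is 0% in either direction. At an unadjusted p under 0.05 there was 1 member lower, rpl32, and 0 higher, beside 2 and 1.83% of all genes. rpl32, a large subunit gene, was at 79.9, 101 and 106 CPM at 47 dpf and 35.3, 79.1 and 46.6 CPM at 61 dpf (-0.83 ± 0.38 on the log2 scale, edgeR adjusted p = 1). The log2 fold change was below 0 for 73 of 82, or 89.0%, while 49% of all genes were above 0, with a median of -0.19 beside -0.0074 for all genes. The groups did not overlap for 20 members, all lower, which is 24.4% beside 6.04% of all genes, and 0 were higher, beside 5.52%. Without mutant replicate 2 at 47 dpf the median was -0.067.

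The 4 stalk genes had log2 fold changes of 0.16 to 0.33 for mutant against wild type at 47 dpf and of -0.16 to 0.28 at 61 dpf, and none was called. rplp0, the base of the stalk, was at 399, 387 and 327 CPM in wild type and 523, 551 and 318 CPM in mutant at 47 dpf, groups that overlap. rplp1, which forms dimers with Rplp2, was at 307, 306 and 300.5 CPM and 347, 461 and 341 CPM in the same order, with the mutants above (0.33 ± 0.21 on the log2 scale, edgeR adjusted p = 0.9). Of the counts of rplp2 and rplp2l together, rplp2 at 47 dpf held 5.44 ± 0.0692% (wild type) and 5.99 ± 0.396% (mutant) (SD, n = 3 each). At 61 dpf the order turned, with 6.53 ± 2.36% (wild type) and 5.32 ± 0.339% (mutant).

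The pair rpl5a and rpl5b encodes Rpl5, which with Rpl11 and the small ribosomal RNA of the large subunit binds Mdm2 in mammals and so stabilises p53 when ribosome assembly is disturbed. rpl5a was at 124, 105 and 147 CPM in wild type and 157, 237 and 199.8 CPM in mutant at 47 dpf, with no overlap and a log2 fold change of 0.66 ± 0.44 (edgeR adjusted p = 0.907). At 61 dpf the mutants were at 148, 127 and 121 CPM, inside the wide range of wild type. Of the counts of both genes, rpl5a held 27.6 ± 1.31% (wild type) and 33.2 ± 1.49% (mutant) at 47 dpf, and 23.1 ± 7.55% and 31.3 ± 1.35% at 61 dpf (SD, n = 3 each). Each age had an exact two-sided permutation p = 0.1 and an adjusted p of 0.433 over the 52 comparisons, so a difference could not pass in this design. rpl11 was at 212, 109 and 112 CPM in wild type and 201, 171 and 199.9 CPM in mutant at 61 dpf, groups that overlap.

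With all libraries, edgeR called no member of the other copied families between the genotypes. rps8b held 0.747 to 0.9% of the counts of rps8a and rps8b in the 4 group means. rpl22l1, which in zebrafish and mouse embryos has roles distinct from its partner rpl22, held 25.4 ± 6.35% and 22.9 ± 6.30% of the pair's counts in wild type and mutant at 47 dpf, and 23.2 ± 7.58% and 19.2 ± 1.93% at 61 dpf (SD, n = 3 each). rps26 and rps26l, 2 genes for the same small subunit protein, had log2 fold changes of 0.13 ± 0.21 and 0.10 ± 0.14 at 47 dpf and -0.09 ± 0.21 and 0.16 ± 0.14 at 61 dpf. rpl7, the subunit gene after which rpl7l1 is named, had -0.03 ± 0.19 at 47 dpf and 0.30 ± 0.19 at 61 dpf, with no call.

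Members with well known single roles were not called either. rps6, the substrate of the S6 kinases below TOR, was at 409.8, 261 and 248 CPM in wild type and 264, 352 and 259.6 CPM in mutant at 47 dpf, and at 291, 205 and 135 and 251, 235 and 242 CPM at 61 dpf. rps19, mutated in human Diamond-Blackfan anaemia, was at 172, 69.5 and 139.9 CPM in wild type and 168, 181 and 197 CPM in mutant at 61 dpf, where wild-type replicate 2 was the lowest. rpl38, needed in mouse for translation of some Hox messengers, was at 46.2, 20.1 and 52.0 CPM and 48.6, 36.4 and 39.6 CPM, overlapping at 61 dpf. rpl13a, known in human cells for a part in silencing inflammatory messengers, had log2 fold changes of 0.05 ± 0.16 and 0.18 ± 0.16 at the 2 ages, and rpl10a had 0.33 ± 0.28 and 0.30 ± 0.28.

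Genes that act with the ribosomal proteins went in more than one direction at 61 dpf. rack1 encodes a scaffold on the small subunit and is not covered by the name rule. It had 0.49 ± 0.23 on the log2 scale (SE, edgeR adjusted p = 0.199). Of 120 ribosome biogenesis factors, which process the ribosomal RNA and put the subunits together, none was called by edgeR. At an unadjusted p under 0.05, 28 were lower in mutant and 4 higher, or 23.3 and 3.33%, beside 12.2 and 13.2% of all genes. DESeq2 called 9 lower, beside 6.21% of the genes it tested. The log2 fold change was below 0 for 95 of 120, or 79.2%, beside 49.6% of all genes, with a median of -0.31. The smallest p among them belonged to krr1, a small subunit assembly factor, with 62.4 ± 5.78 CPM for wild type against 31.6 ± 6.54 CPM for mutant (SD, n = 3 each; log2 fold change -0.98 ± 0.27, edgeR adjusted p = 0.0676). utp23 had -0.78 ± 0.22 (edgeR adjusted p = 0.073). The list's median was -0.10 under upper-quartile scaling and -0.49 without wild-type replicates 2 and 3. The median of all genes, 0.0055 with all libraries and TMM, also moved up in both of those fits, as given above.

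Of the 74 mitochondrial ribosomal protein genes, edgeR called 2 lower and none higher in mutant at 61 dpf, beside 0.598 and 1.22% of all genes, with a median of -0.24. At an unadjusted p under 0.05, 17 were lower and 5 higher, or 23 and 6.76%, beside 12.2 and 13.2% of all genes. DESeq2 called 8 lower and 2 higher, beside 6.21 and 5.16%, and the same background holds for the lists that follow. mrpl43 had -1.15 ± 0.25 on the log2 scale (SE, edgeR adjusted p = 0.0439) and mrpl57 had -0.71 ± 0.16 (edgeR adjusted p = 0.0481). Without wild-type replicates 2 and 3 neither was called (edgeR adjusted p = 0.137 and 0.0901), and each call was also lost without wild-type replicate 3 alone or any 1 mutant library, and that of mrpl57 without wild-type replicate 1. None of 31 tested subunits and factors of RNA polymerases I and III, which transcribe the ribosomal RNA genes, was called by edgeR. Their median was -0.27, with 4 lower and 1 higher at an unadjusted p under 0.05, and DESeq2 called 2 lower and 1 higher. Of 39 tested TOP messengers that do not encode ribosomal proteins, none was called by edgeR, 4 were higher and 3 lower at an unadjusted p under 0.05, DESeq2 called 2 higher and 1 lower, and the median was -0.06. Of 38 TOR pathway genes and translation regulators none was called by edgeR, 2 were higher and 8 lower at an unadjusted p under 0.05, DESeq2 called 1 higher and 4 lower, and the median was -0.13. larp1, the regulator of TOP messengers, averaged 55.8 ± 11.3 CPM for wild type against 102 ± 6.35 CPM for mutant at 61 dpf (SD, n = 3 each; log2 fold change 0.86 ± 0.20, edgeR adjusted p = 0.0541). It had the smallest p of the TOR list but went against the list's median, and the next gene by p was lower in mutant. Without wild-type replicates 2 and 3 the medians were -0.38 for the mitochondrial ribosomal proteins, -0.18 for the polymerase genes, -0.10 for the TOP messengers and -0.15 for the TOR genes, beside 0.074 for all genes.

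The members lie on 25 chromosomes of the RefSeq annotation of the GRCz12tu assembly, in which 81 of the 82 symbols were found. The chromosome of adamts9 holds 4 of them, rpl22, rpl29, rps15 and rps23. Their log2 fold changes for mutant against wild type ran from -0.01 to 0.24 at 47 dpf and from -0.07 to 0.40 at 61 dpf, and none was called.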

How the data were processed

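The 12 libraries held polyadenylated ovary RNA, 3 for each genotype and age. Groups, ages and replicate numbers are those of the labels, which differ in age from the design text. A single table of estimated counts per symbol was deposited by the authors, and 45.4% of its values were not whole (tolerance 1e-06). Per the submitters' processing notes, kallisto and GRCz11 were used, with versions not given in the sources used here. A line without a symbol was removed (up to 0.000113% of a library).

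The estimated counts were rounded, filtered with filterByExpr, scaled by TMM and fitted together with edgeR 4.0.16 (quasi-likelihood, 4 groups) in R (R 4.3.3; limma 3.58.1; common biological coefficient of variation 0.33). A call needed an adjusted p under 0.05, by Benjamini-Hochberg over 21407 genes. DESeq2 1.42.0, other scalings, no filter, only the compared libraries, the replicate number as a block and leaving out each replicate were alternatives, and the library pair left out together (wild type at 61 dpf, replicates 2 and 3) was chosen after seeing the data. No library or member equalled another, and shares of copies were compared with exact two-sided permutation tests.

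The members and lists were chosen with earlier results of these data known. Genes were named as called members, or otherwise the 4 members of smallest p per comparison, plus copies and members of known roles, and up to 3 genes per other list. rps24, rpl10 and the members described for their spread or lack of overlap were named after their values were seen. CPM values are not divided by transcript length, so levels were not compared between genes, and the part of the rule that ranks genes by level per length was not run. fau was not analysed here, and some genes are not reported by name here.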

Additional observations from a re-analysis of the deposited data

How the results depend on the processing

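At 61 dpf, 1 of the 82 members was called higher and 0 lower in mutant, beside 1.22 and 0.598% of all genes. The count called higher was 2 with upper-quartile scaling and with DESeq2, beside 4.1 and 5.16% of all genes. It was 0 with only the libraries compared, beside 0.0494%. When 1 replicate was left out it was up to 10, beside 0.0595 to 3.38% of all genes over those fits. The count of 10 came without wild-type replicate 1, where the share of all genes was 1.52%. The count called lower was 4 with DESeq2, beside 6.21% of all genes. It was up to 3 without 1 replicate, beside 0.0415 to 4.1% over those fits. The median log2 fold change of the members was 0.47 with upper-quartile scaling and 0.095 to 0.44 over the left-out libraries. For age in wild type, DESeq2 called 2 members higher and 2 lower, beside 4.41 and 3.43% of all genes. Only the libraries compared gave 0 lower, beside 0.0747%. Leaving out 1 library gave up to 16 lower, beside 0.0322 to 2.36% of all genes over those fits. Over the left-out libraries the medians of this comparison ran from -0.47 to -0.090. The median difference between the genotype effects ran from -0.096 to 0.29. The counts called at 47 dpf and for age in mutant were 0 under each alternative run, beside at most 0.542 and 0.0543% of all genes. No group's share of counts moved by over its SD. Leaving out 1 of 3 libraries cannot move a mean by that much, so those runs do not test how stable the shares are. The cause of the changes was not tested.

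Among genes, 32 alternative values had the opposite sign, 10 gained and 8 lost the threshold, and 772 did neither. With upper-quartile scaling, rps27l and rpl7 at 47 dpf were at 0.028 and 0.017, and rpl22l1, rps26 and rplp2 at 61 dpf were at 0.072, 0.10 and 0.057. Over left-out libraries, log2 fold changes at 47 dpf ran from -0.44 to 0.18 for rpl22l1, -0.12 to 0.059 for rpl7, -0.043 to 0.25 for rps27.2, -0.35 to 0.18 for rps27l and -0.23 to 0.18 for rps6. At 61 dpf they ran from -0.16 to 0.81 for rpl11, -0.082 to 0.73 for rpl22, -1.05 to 0.72 for rpl22l1, -0.24 to 0.32 for rpl38, -0.23 to 1.54 for rpl5a, -0.62 to 0.86 for rpl5b, -0.13 to 0.57 for rpl7, -0.41 to 0.19 for rplp2, -0.27 to 0.39 for rps26, -0.28 to 0.53 for rps6, -0.057 to 0.16 for rps8a and -0.053 to 0.48 for rps8b.

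Deviations of libraries with the same replicate number had correlations of -0.198 to 0.254. In no comparison were those of all 3 pairs over 0.1, so the numbers were not taken as pairs. A library's own number was the best match in 13 of 24. Each match had 3 candidates, so unrelated numbers would match 1 time in 3, and 13 of 24 does not show that the numbers are unrelated. With the replicate number as a block, 1 member was called higher at 61 dpf and 0 at 47 dpf, beside 0.28 and 0.028% of all genes. The medians were then 0.29 and 0.19. In that fit rps27.2 at 61 dpf was at 1.11 (edgeR adjusted p = 0.0365), and rps27l at 47 dpf was at 0.017.

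The lowest members, rps8b and rps27l, had as few as 60 and 101 counts in a library, which limits their precision most.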

Other observations

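rpl10, a large subunit gene whose product joins late in assembly, was at 259.7, 259 and 58.0 CPM in wild type and 283, 359 and 120.1 CPM in mutant at 47 dpf, with replicate 3 the lowest in both groups. It had the widest spread of any member in both groups of that age. rps24, a small subunit gene, was at 151, 139.6 and 254 CPM and 159, 153 and 274 CPM in the same groups, with replicate 3 the highest in both. At 61 dpf rps24 was at 284, 88.0 and 248 CPM in wild type and 171, 179 and 145 CPM in mutant. Across the 82 members, the deviations from each gene's mean over all libraries in wild-type replicate 3 and mutant replicate 3 at 47 dpf had a Pearson r of 0.733, and those of the same libraries with wild-type replicate 1 at 61 dpf had 0.689 and 0.484. Over all pairs of libraries the values ran from -0.602 to 0.733, and the 0.733 and 0.689 given here were the highest. Other pairs were also high, with 0.662 for mutant replicates 1 and 2 at 47 dpf and 0.539 for mutant replicates 1 and 3 at 61 dpf. These correlations are across genes, which are not independent replicates, and share the same scaling.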
